A study of Mus musculus with 12 samples.

Results

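Neuronal voltage-gated calcium channels were examined in dorsal root ganglia (DRG) through 10 genes, 8 encoding pore-forming alpha-1 subunits (Cacna1a, Cacna1b, Cacna1c, Cacna1d, Cacna1e, Cacna1g, Cacna1h and Cacna1i) and 2 encoding alpha-2-delta subunits (Cacna2d1 and Cacna2d2). They were taken by exact gene symbol from a table of 49315 genes. All 10 were found and all 10 passed the filter on low counts that left 18295 genes for testing. The table came from bulk RNA sequencing of DRG from 12 mice aged 10 months, with 1 library made from 8 DRG of each mouse. The 6 Nf2 mice carried Postn-Cre and floxed Nf2 alleles, and the 6 DKO mice carried floxed Fak alleles (the gene Ptk2) in addition. Nf2 loss and Cre were therefore shared by both groups, and no mouse with intact Nf2 was analysed here. Periostin-driven Cre acts in Schwann cells and their precursors, whereas the channels described below are best known from neurons. Each genotype had 3 mice labelled male and 3 labelled female.

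Voltage-gated calcium channels open when a neuron depolarizes, and the calcium that enters triggers transmitter release, activates enzymes and alters gene expression. High-voltage-activated channels need an auxiliary beta subunit and an alpha-2-delta subunit to reach and stay in the membrane, whereas low-voltage-activated (T-type) channels open near the resting potential and shape firing. In sensory neurons of the DRG, N-type channels carry much of the calcium that releases transmitter onto the spinal cord, T-type channels regulate excitability, and alpha-2-delta-1 is the binding site of gabapentin and pregabalin.

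The division between these channel classes can be read in the selectivity filter, the ring of acidic residues, contributed by each of the 4 repeats of the alpha-1 protein, that selects calcium. The coding stretch of the fourth repeat is shown for the 8 alpha-1 genes, with the codon of the acidic residue in capitals. The sequences come from GENCODE M21 transcripts on GRCm38.
Cacna1a: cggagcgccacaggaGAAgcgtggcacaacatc
Cacna1b: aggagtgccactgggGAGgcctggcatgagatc
Cacna1c: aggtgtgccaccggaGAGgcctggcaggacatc
Cacna1d: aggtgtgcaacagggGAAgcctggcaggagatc
Cacna1e: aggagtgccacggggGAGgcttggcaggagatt
Cacna1g: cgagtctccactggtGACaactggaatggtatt
Cacna1h: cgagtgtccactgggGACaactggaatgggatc
Cacna1i: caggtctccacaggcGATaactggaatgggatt

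The capitals encode glutamate in the 5 high-voltage-activated genes and aspartate in the 3 T-type genes. In the high-voltage genes the stretch joins 2 coding exons, at chr8:84602038-84611628 (plus strand) for Cacna1a, chr2:24635210-24637427 (minus) for Cacna1b, chr6:118614047-118624368 (minus) for Cacna1c, chr14:30075941-30077680 (minus) for Cacna1d and chr1:154425972-154426527 (minus) for Cacna1e. In the T-type genes it lies within 1 coding exon, at chr11:94416412-94416444 (minus) for Cacna1g, chr17:25377768-25377800 (minus) for Cacna1h and chr15:80388482-80388514 (plus) for Cacna1i.

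Whether reads could be assigned to 1 member was examined by the longest stretch that members share exactly. Between members the longest was 68 coding bases, shared by the T-type genes Cacna1g and Cacna1i.
Cacna1g and Cacna1i: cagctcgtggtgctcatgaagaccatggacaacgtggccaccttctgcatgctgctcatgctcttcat
Cacna1h and Cacna1i shared 50 bases, Cacna1c and Cacna1d shared 43, Cacna1g and Cacna1h shared 41, and Cacna1a and Cacna1b shared 35. Longer runs were shared with genes outside the 10. Cacna1e shared 130 bases and Cacna2d1 129 bases with Gm11027. Cacna1c shared 84 bases and Cacna2d2 83 bases with Dcaf1, and Cacna1b shared 76 bases with 4930553M12Rik. Of the distinct 31-base runs in each member's transcripts, from 0.0521% (Cacna1a) to 0.885% (Cacna1e) also occurred in transcripts of another gene in the same orientation. In the opposite orientation the share was 0 for Cacna1g and Cacna1i, 3.04% for Cacna1a and at most 4.38% (Cacna1d). Cacna1d overlapped the gene Chdh on the opposite strand over 589 of its 12621 exonic bases, Cacna1a overlapped the antisense gene Gm16183 over 435 of 11418, and Cacna1h overlapped Tpsg1 over 158 of 9763. The strand setting of the counting and its treatment of reads with several matches were not given in the sources used here, so reads from these stretches cannot be told apart.

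Total counts ranged from 21129191 to 41250329 per mouse. Ptk2 itself had 65.8 to 75.5 CPM (read counts scaled to the library total) in Nf2 mice and 46.5 to 76.0 CPM in DKO mice, so whole-tissue counts did not separate the genotypes by the targeted gene. Mouse 702 was labelled male, yet its library carried Xist at 496 CPM and Ddx3y at 0.525 CPM, levels inside the span of the female libraries. Log2 differences that involve males are therefore given with and without it. Summed over 12 skeletal muscle markers, the libraries held 17.4 to 1159 CPM in Nf2 mice and 23.6 to 372 CPM in DKO mice. Summed over 7 spinal cord neuron markers, 5 libraries (mice 1049, 884, 914, 915 and 917) stood apart with 22.8 to 56.5 CPM, against 4.78 to 10.1 CPM in the other 7. Of those 5 libraries, 2 were Nf2 and 3 were DKO. DRG neurons were well represented, as the 15 pan-neuronal markers summed to between 12080 and 16140 CPM in Nf2 mice and between 13140 and 14730 CPM in DKO mice.

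Levels of the 10 genes were compared with each other as CPM per kb of merged exons. Over the 12 mice, the N-type gene Cacna1b had the highest mean at 15.7 ± 1.39 CPM per kb (SD), followed by Cacna2d1 at 15.5 ± 1.34. These 2 genes could not be ordered, because Cacna1b was the higher of the pair in 5 of 12 mice. Cacna2d2 (11.7 ± 2.60 CPM per kb), the P/Q-type gene Cacna1a (7.94 ± 1.07), the T-type gene Cacna1h (5.09 ± 0.53) and the L-type gene Cacna1c (3.43 ± 0.28) came next. Cacna1a exceeded Cacna1h, and Cacna1h exceeded Cacna1c, in all 12 mice.

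A group of 4 genes was at about 1 CPM per kb or below. These were the T-type gene Cacna1i (1.03 ± 0.25 CPM per kb), the L-type gene Cacna1d (0.982 ± 0.181), the R-type gene Cacna1e (0.834 ± 0.275) and the T-type gene Cacna1g (0.601 ± 0.451). Every one of the 12 mice had more Cacna1c than Cacna1i per kb, which set this group apart from the first 6 genes. Within the group, Cacna1i exceeded Cacna1d in 5 of 12 mice and Cacna1d exceeded Cacna1e in 8 of 12, so these neighbours did not differ beyond their spread. The relative spread was widest for Cacna1g, with a coefficient of variation of 75.0%, and narrowest for Cacna1c at 8.22%. Dividing by the longest transcript instead of all merged exons put Cacna2d1 ahead of Cacna1b (25.9 against 16.0 CPM per kb) and moved Cacna1e from the ninth to the seventh place, so these places depend on the length used.

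**Figure D1:**
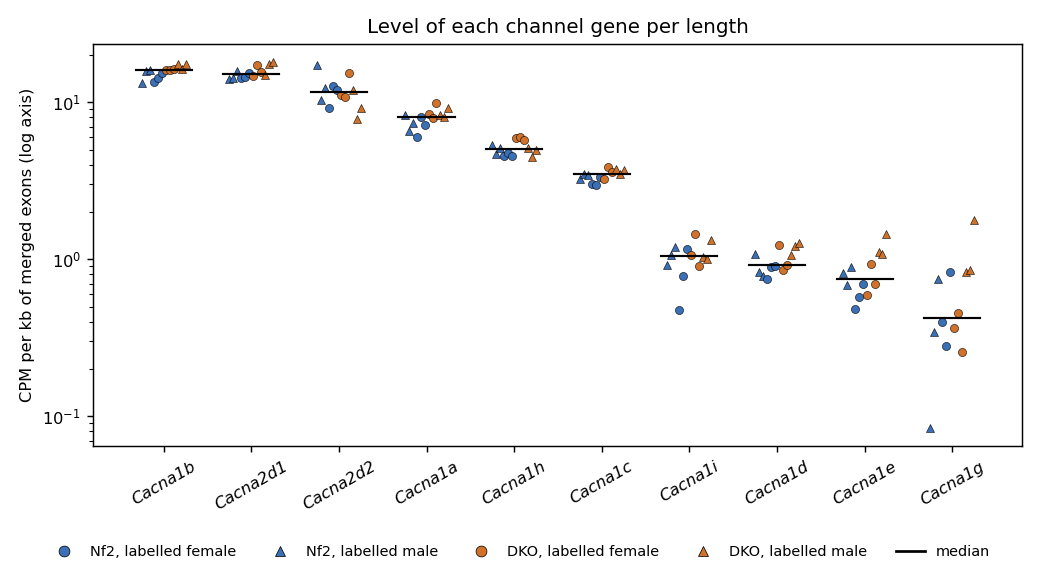
CPM per kb of merged exons for the 10 channel genes, ordered by mean, on a log axis, with 1 point per mouse (blue Nf2, orange DKO, circles labelled female, triangles labelled male) and a black line at the median of the 12 mice. Cacna1b and Cacna2d1 lead at 15.7 and 15.5 CPM per kb, and Cacna1g at the right end spreads from 0.0840 to 1.77.

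The makeup of the alpha-1 pool overlapped between the genotypes by this measure. Of the summed alpha-1 level per kb, the N-type gene contributed 44.6 ± 2.51% in Nf2 mice and 43.6 ± 1.18% in DKO mice (mean ± SD, n = 6), and the P/Q-type gene 21.96 ± 2.38% and 22.64 ± 1.69%. The 3 T-type genes together contributed 18.8 ± 0.73% and 18.9 ± 1.36%, and the 2 L-type genes 12.6 ± 0.56% and 12.3 ± 0.38%. The R-type gene contributed 2.08 ± 0.35% and 2.54 ± 0.73%. No test was made on the shares.

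Whether loss of Fak in addition to Nf2 went with a different channel expression was examined by comparing DKO with Nf2 mice. None of the 10 genes passed an adjusted edgeR p of 0.05 (0 of 10), where 0.94% of all tested genes did (172 of 18295). Cacna1a, Cacna1b, Cacna1d and Cacna1e had an unadjusted edgeR p under 0.05 (4 of 10, or 40.0%), against 14.9% of all tested genes. All 4 of these were higher in DKO, as were 6.91% of all tested genes, and 0 were lower, against 7.96%. The log2 fold change was above 0 in 9 of the 10 genes, Cacna2d2 being the exception, with a median of 0.20, whereas over all tested genes the median was 0.005 and 51% lay above 0. DESeq2 also called 0 of the 10, and limma voom with quality weights called 1, Cacna1d. In bulk tissue, fewer cells of a type and less RNA per cell cannot be told apart.

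**Figure D2:**
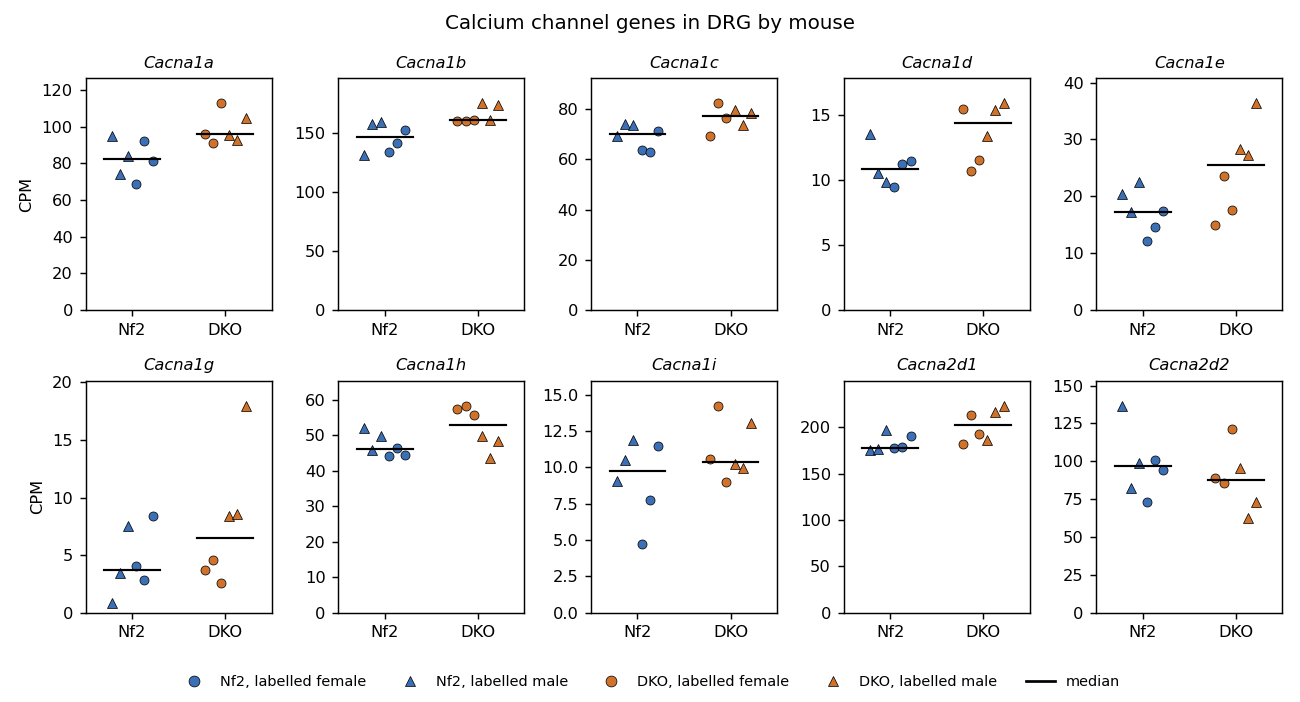
CPM of each of the 10 channel genes by mouse, in Nf2 (blue) and DKO (orange) DRG, with circles for mice labelled female, triangles for mice labelled male and black lines at the medians of 6 mice. The medians are higher in DKO for 9 of the 10 genes, and the genotypes separate fully in the Cacna1b panel only, in CPM by library totals.

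The channels of the presynaptic terminal are encoded by Cacna1a, Cacna1b and Cacna1e. Cacna1b (ENSMUSG00000004113, chr2:24603887-24763152, minus strand) encodes the N-type pore, the target of ziconotide. In Nf2 mice it ranged from 132 to 159 CPM with a median of 147, and in DKO mice from 160.3 to 175 CPM with a median of 161. All 6 DKO mice lay above all 6 Nf2 mice in CPM, although the nearest values, 159.4 and 160.3 CPM, were less than 1 CPM apart. The edgeR test also scaled libraries by the trimmed mean of M values. Its factors were 0.977 for Nf2 mouse 702 (157.4 CPM) and 1.02 for DKO mouse 915 (161.3 CPM). That scaling reverses the order of these 2 mice, so the full separation does not hold under it. Between the genotypes the log2 fold change was 0.16 ± 0.06 (SE), with an unadjusted edgeR p of 0.0167 and an adjusted p of 0.208. Cacna1b was the only one of the 10 genes whose genotypes did not overlap in CPM, which held for 1.95% of all tested genes (0.902% higher and 1.04% lower in DKO). An exact permutation of its log2(CPM + 4) values gave p 0.00216 before adjustment, the smallest that 6 against 6 mice can give. Full separation in CPM fixes that value, so it adds nothing to the separation itself and shares its dependence on the scaling. For the other members the same permutation gave p from 0.0130 (Cacna1a) to 0.416 (Cacna2d2).

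Cacna1a (ENSMUSG00000034656, chr8:84388440-84640246, plus strand) encodes the P/Q-type pore, which drives release at most fast central and neuromuscular synapses. In Nf2 mice it ranged from 68.9 to 94.7 CPM (median 82.6), and in DKO mice from 90.9 to 113 CPM (median 95.8). The genotypes overlapped through the Nf2 mice 649 (94.7 CPM) and 1048 (92.3 CPM), which lay above the lowest DKO value. DKO against Nf2 gave a log2 fold change of 0.24 ± 0.08 (SE), at an adjusted edgeR p of 0.190. These 2 Nf2 mice also had the highest sums of pan-neuronal markers, at 16140 and 15400 CPM. With the pan-neuronal level of each mouse as a covariate, the Cacna1a estimate was again 0.24, its SE was 0.05 and its edgeR adjusted p was 0.0140, in a fit that called 751 genes in all. Within sexes the estimate was 0.31 in females and 0.16 in males, or 0.08 in males without mouse 702.

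Cacna1e (ENSMUSG00000004110, chr1:154390731-154884501, minus strand) encodes the R-type pore, which contributes to release and to dendritic calcium. In Nf2 mice it ranged from 12.2 to 22.5 CPM (median 17.3), and in DKO mice from 14.95 to 36.4 CPM (median 25.4). The 3 highest values, 27.3, 28.2 and 36.4 CPM, belonged to the 3 DKO males, and the DKO females at 14.95, 17.6 and 23.6 CPM lay among or just above the Nf2 mice. The log2 fold change was 0.48 ± 0.20 (SE), at an adjusted edgeR p of 0.276. The 3 DKO males were among the 5 mice with most spinal cord neuron markers. With that marker level as a covariate the estimate was 0.31 (edgeR adjusted p 0.367), and without the 5 mice it was 0.20 (0.916).

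The L-type channels couple calcium entry to gene expression. Cacna1c (ENSMUSG00000051331, chr6:118587240-119196418, minus strand), which also serves heart and smooth muscle, ranged from 62.7 to 73.8 CPM in Nf2 mice (median 70.2) and from 69.0 to 82.2 CPM in DKO mice (median 77.3). The genotypes overlapped between 69.0 and 73.8 CPM. Between the genotypes the log2 fold change was 0.13 ± 0.06 (SE), at an adjusted edgeR p of 0.357. Smooth muscle and pericyte markers summed to between 97.2 and 186 CPM in Nf2 mice and between 105 and 171 CPM in DKO mice, with 0 of 8 past the edgeR threshold and a median log2 fold change of 0.17. Their part in the Cacna1c level was not tested. The Cacna1c estimate was 0.08 with the skeletal muscle level as a covariate (edgeR adjusted p 0.630), and 0.20 in females and 0.05 in males (0.07 without mouse 702).

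Cacna1d (ENSMUSG00000015968, chr14:30039939-30491455, minus strand) encodes an L-type pore that opens at more negative potentials and supports hearing and pacemaking. In Nf2 mice it ranged from 9.47 to 13.6 CPM (median 10.9), and in DKO mice from 10.7 to 15.9 CPM (median 14.4). The values formed an upper set of 5 mice at 13.4 CPM or more, of which 4 were DKO and 1, mouse 649, was Nf2. DKO against Nf2 gave a log2 fold change of 0.30 ± 0.12 (SE), at an adjusted edgeR p of 0.245. This was the gene that limma voom called, at 0.42 with an adjusted p of 0.0297, in a fit that called 521 genes in all. The estimate was 0.16 (edgeR adjusted p 0.921) without the 5 mice with most spinal cord neuron markers.

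The T-type channels let neurons fire in bursts or from small depolarizations. Cacna1h (ENSMUSG00000024112, chr17:25374285-25433783, minus strand), which encodes the T-type pore best known from nociceptors and low-threshold mechanoreceptors, ranged from 44.1 to 52.0 CPM in Nf2 mice (median 46.1) and from 43.7 to 58.3 CPM in DKO mice (median 52.8). The log2 fold change was 0.13 ± 0.08 (SE), at an adjusted edgeR p of 0.504. By labelled sex, the DKO females had 55.8, 57.4 and 58.3 CPM, above all other mice. The DKO males had 43.7, 48.3 and 49.7 CPM, the lowest of them below every Nf2 mouse. All 3 DKO males and no DKO female were among the 5 mice with most spinal cord neuron markers. Labelled sex and that marker level can therefore not be told apart within DKO. Between the genotypes the log2 fold change was 0.35 ± 0.08 in females and -0.10 ± 0.10 in males (-0.16 ± 0.12 without mouse 702). The interaction of genotype and sex was -0.46 ± 0.11 (SE), with an unadjusted edgeR p of 0.00182 and an adjusted p of 0.838 (-0.50 and 0.772 without mouse 702). With the skeletal muscle level as a covariate the genotype estimate was 0.07 (edgeR adjusted p 0.751), and without the 5 mice with most spinal cord neuron markers it was 0.26 (0.521).

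Cacna1i (ENSMUSG00000022416, chr15:80287238-80398279, plus strand), a T-type gene best known from thalamus, ranged from 4.70 to 11.9 CPM in Nf2 mice (median 9.77) and from 8.99 to 14.2 CPM in DKO mice (median 10.4). Most values of the genotypes were intermixed, with mouse 918 (Nf2) the lowest and mouse 886 (DKO) the highest. DKO against Nf2 gave a log2 fold change of 0.26 ± 0.19 (SE), at an adjusted edgeR p of 0.588. It was 0.12 without mouse 918 (adjusted p 0.754), and 0.51 in females and 0.03 in males (0.04 without mouse 702). The gene lies 6.86 Mb from Ptk2, the gene floxed in the DKO mice only, on the same chromosome. Of the genes described below, Cacng2 (chr15:77991748-78120028) lies nearer to Ptk2 (chr15:73205102-73423280). Cacnb3 and Scn8a are on chromosome 15 as well. The part of sequence linked to the floxed allele in any of these values was not tested.

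Cacna1g (ENSMUSG00000020866, chr11:94408391-94474198, minus strand), a T-type gene prominent in central neurons that fire in bursts, ranged from 0.852 to 8.41 CPM in Nf2 mice (median 3.76) and from 2.60 to 18.0 CPM in DKO mice (median 6.52). Its lowest value rested on 20 reads, in mouse 649. The 5 highest values were 17.96 CPM in mouse 917, 8.61 in mouse 915, 8.44 in mouse 914, 8.41 in mouse 1049 and 7.55 in mouse 884, and no other mouse exceeded 4.60 CPM.

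These were exactly the 5 mice with most spinal cord neuron markers, and they came from both genotypes. Cacna1g had a log2 fold change of 0.74 ± 0.51 (SE) between the genotypes, with an adjusted edgeR p of 0.543. With the spinal cord neuron level as a covariate it was 0.29 ± 0.29 (adjusted p 0.748), and without the 5 mice it was 0.36 ± 0.45 (0.932). It was 0.29 without mouse 917 alone (0.872) and 1.22 with the skeletal muscle level as a covariate (0.284). It was 1.499 in males (1.41 without mouse 702) and -0.48 in females, where all 3 DKO males but only 1 Nf2 male belonged to those 5 mice. Of the spinal cord neuron markers, 0 of the 5 tested passed the edgeR threshold (median log2 fold change 0.66). The inhibitory neuron markers among them were low, led by Gad1 at 4.93 ± 3.08 CPM in Nf2 and 7.01 ± 6.28 CPM in DKO mice (SD, n = 6), Slc6a5 at 4.07 ± 5.68 and 6.48 ± 7.28, and Slc32a1 at 1.61 ± 2.01 and 2.84 ± 2.99. Chat and Mnx1, which mark motor neurons, had at most 5 reads in any mouse, and the cholinergic marker Slc5a7 had 2.27 ± 0.34 and 2.05 ± 0.42 CPM (log2 fold change -0.17, edgeR adjusted p 0.694). Oligodendrocyte and astrocyte markers had medians of 0.58 and 0.57, with 0 of 4 and 0 of 5 past the edgeR threshold. Of the 5 highest mice for Cacna1e, 4 were among the same 5 mice, against 3 for Cacna1b and 1 for Cacna1h.

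**Figure D3:**
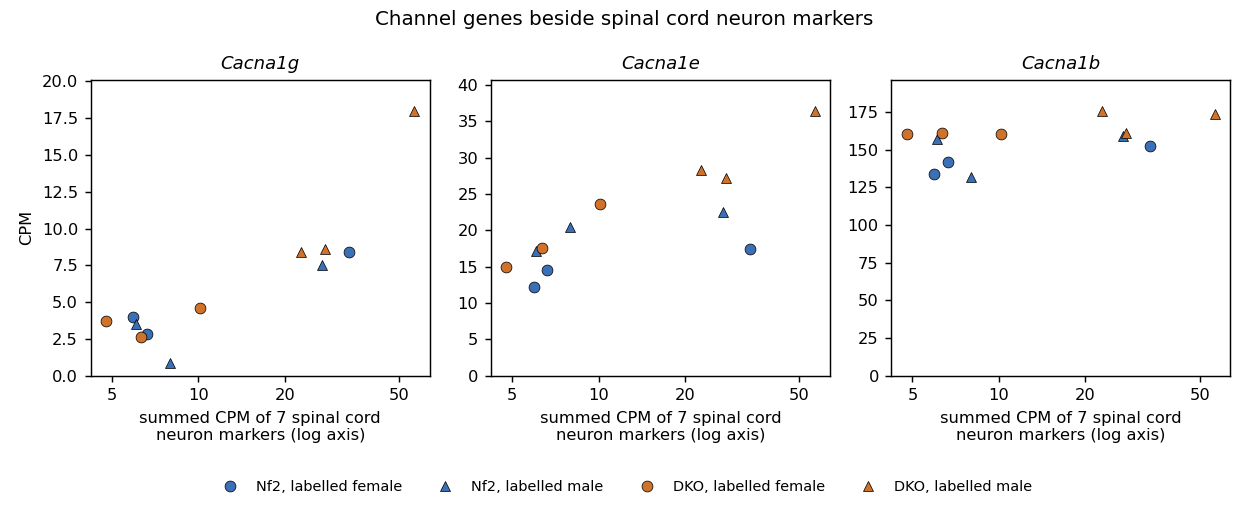
CPM of Cacna1g, Cacna1e and Cacna1b (vertical axes, from 0) against the summed CPM of 7 spinal cord neuron markers (horizontal log axis), 1 point per mouse, with genotype by colour and labelled sex by shape. The 5 mice at or above 22.8 CPM of markers hold the 5 highest Cacna1g values, from 7.55 to 17.96 CPM, whereas Cacna1b spans 152 to 175 CPM in those mice and 132 to 161 CPM in the other 7.

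The alpha-2-delta subunits bring channels to the terminal. Cacna2d1 (ENSMUSG00000040118, chr5:15934691-16374511, plus strand), which encodes the gabapentin receptor and is raised in DRG after nerve injury, ranged from 176 to 197 CPM in Nf2 mice (median 178) and from 182 to 223 CPM in DKO mice (median 203). The Nf2 mice clustered at 176 to 179 CPM apart from mice 1049 and 884 at 191 and 197 CPM, and the DKO values were spread across and above that range. The log2 fold change was 0.13 ± 0.06 (SE), at an adjusted edgeR p of 0.343. Injured-neuron markers, which accompany axon damage, summed to between 81.9 and 126 CPM in Nf2 mice and between 76.0 and 122 CPM in DKO mice, which overlapped. Their part in the Cacna2d1 level was not tested. Of the 7 markers 0 passed the edgeR threshold (median 0.09), and 1 had an unadjusted edgeR p under 0.05, in the lower direction. The best known of them, Atf3, had a log2 fold change of -0.26 (adjusted edgeR p 0.235).

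Cacna2d2 (ENSMUSG00000010066, chr9:107399612-107529343, plus strand) also binds gabapentin and is best known from cerebellum. It was the only one of the 10 genes with a negative estimate. In Nf2 mice it ranged from 73.3 to 137 CPM (median 96.6), and in DKO mice from 62.3 to 121 CPM (median 87.4). The genotypes overlapped almost entirely, and each had 1 mouse well above the rest, namely 649 in Nf2 and 887 in DKO. Between the genotypes the log2 fold change was -0.17 ± 0.17 (SE), at an adjusted edgeR p of 0.700, and it was 0.15 in females and -0.50 in males (-0.66 without mouse 702). It was -0.04 without mouse 649, -0.30 without mouse 887 and -0.08 without mouse 915, with adjusted p of 0.318 to 0.944, and -0.004 without the 5 mice with most spinal cord neuron markers.

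In all, the 8 alpha-1 genes summed to between 341 and 418 CPM in Nf2 mice and between 428 and 488 CPM in DKO mice, so that every DKO mouse lay above every Nf2 mouse in the sum. This sum is weighted towards long and abundant transcripts, Cacna1b above all. The 2 alpha-2-delta genes summed to between 251 and 312 CPM and between 271 and 314 CPM, which overlapped. The alpha-1 sums are given as a description with no test, since the genes were chosen with earlier results of these data known.

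Other channel subunits were compared through a list of 16 genes, of which Cacna1f, Cacng1 and Cacng6 fell below the count filter. Of the 13 tested, 0 passed the edgeR threshold and 4 had an unadjusted edgeR p under 0.05 (30.8%, against 14.9% of all tested genes). The estimate lay above 0 in 9, and the median was 0.29. Those 4 were Cacnb4, Cacng2, Cacng5 and Cacna1s. Cacnb4 encodes a beta subunit that traffics high-voltage-activated pores to the membrane. It had 102 to 127 CPM in Nf2 mice (median 111) and 134 to 163 CPM in DKO mice (median 139). The genotypes did not overlap, which held for 1.95% of all tested genes. Its log2 fold change was 0.30 ± 0.07 (SE), at an adjusted edgeR p of 0.0554, just short of the threshold. It passed in 6 of 27 alternative fits, DESeq2 (adjusted p 0.00277) and limma voom (0.0334) among them.

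Cacng2 and Cacng5, gamma-family genes named after their values were seen, had log2 fold changes of 0.47 and 0.34 (edgeR adjusted p 0.176 and 0.141). The 3 other subunit genes with most reads were closer between the genotypes. Cacnb3, the other main beta subunit, had 192 ± 26.1 and 185 ± 6.24 CPM (log2 fold change -0.07, edgeR adjusted p 0.742). Cacng7, which encodes a protein of the gamma family that also regulates AMPA receptors, had 71.9 ± 13.2 and 72.0 ± 7.05 CPM (-0.02, 0.967). Cacna2d3, a further alpha-2-delta gene that takes part in heat nociception, had 46.7 ± 2.51 and 50.7 ± 3.63 CPM (0.10, 0.482). Cacna1s, the skeletal muscle pore, was named after its values were seen. It had the estimate farthest from 0 among the 13 genes, at -2.005 (edgeR adjusted p 0.136). Skeletal muscle markers had estimates below 0 for 12 of 12 genes tested (median -2.16). Of these 0 passed the edgeR threshold and 11 had an unadjusted p under 0.05 (91.7%, against 14.9% of all tested genes).

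**Figure D4:**
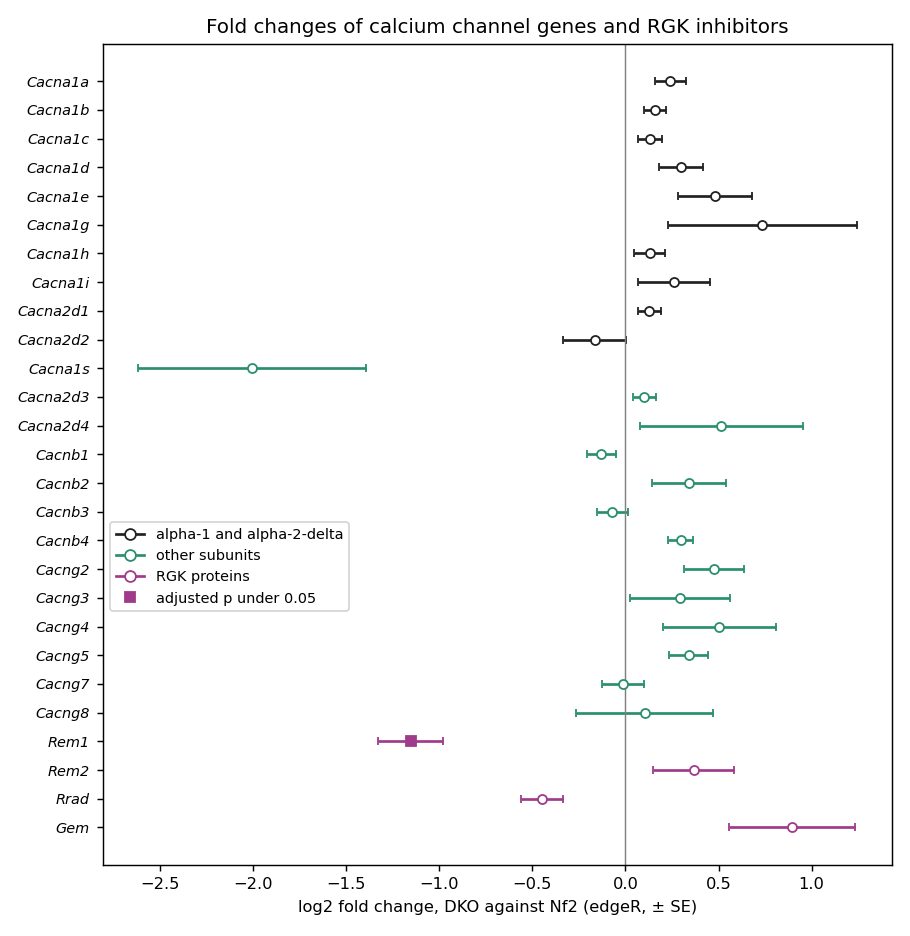
The edgeR log2 fold change of DKO against Nf2 (horizontal axis, bars ± SE) for the 10 alpha-1 and alpha-2-delta genes (black), 13 other channel subunits (green) and 4 RGK inhibitors (purple), with a filled square where the adjusted p was under 0.05. Only Rem1 is a filled square, at -1.15, and the estimates of the black genes run from -0.17 to 0.74.

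Genes that act with or after the channels were taken from 5 lists holding 56 genes, all of them tested. Rem1 alone passed the edgeR threshold, in the lower direction, which 0.568% of all tested genes did. An unadjusted edgeR p under 0.05 was found for 18 of the 56 (32.1%, against 14.9% of all tested genes). The genotypes did not overlap for 3 genes higher and 2 lower in DKO, as for 0.902% and 1.04% of all tested genes. Rem1 belongs with Rem2, Rrad and Gem to the RGK proteins, small GTP-binding proteins that bind beta subunits and inhibit high-voltage-activated calcium channels. Rem1 had 4.47 to 7.37 CPM in Nf2 mice (median 5.00) and 1.82 to 3.06 CPM in DKO mice (median 2.41), from 43 to 173 reads per mouse. All 6 DKO mice lay below all 6 Nf2 mice. Rem1 fell by 1.15 on the log2 scale in DKO (SE 0.17, edgeR adjusted p 0.00838), and it passed in each of the 12 fits that left out 1 mouse, with adjusted p from 0.00920 to 0.0258.

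Within the labelled sexes the Rem1 estimate was -1.24 in females (edgeR adjusted p 0.0927) and -1.10 in males (0.295, or -1.18 and 0.547 without mouse 702), neither past the threshold. It was -1.19 with the skeletal muscle level as a covariate (adjusted p 0.0217) and -1.19 with the spinal cord neuron level (0.0142). Without the 5 mice with most spinal cord neuron markers it was -1.44 (0.150). Macrophage markers summed to between 165 and 250 CPM in Nf2 mice and between 139 and 182 CPM in DKO mice, which overlapped, with estimates below 0 for 7 of 7 genes (median -0.44). Of these 1, C1qb, passed the edgeR threshold and fell by 0.71 on the log2 scale (adjusted p 0.0138). The part of macrophages in the Rem1 level was not tested.

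The other 3 RGK genes, named after their values were seen, did not pass and did not share a direction. Rrad had 4.11 to 5.02 CPM in Nf2 mice and 2.68 to 3.88 CPM in DKO mice, without overlap, and its log2 fold change was -0.45 ± 0.11 (SE, adjusted edgeR p 0.0838). Gem had 1.95 to 3.26 CPM in Nf2 mice and 1.94 to 8.25 CPM in DKO mice, where mice 885, 887 and 917 were high at 5.43, 7.38 and 8.25 CPM (0.89 ± 0.34, adjusted p 0.226). Rem2, the member best known from neurons, had 4.09 to 8.26 CPM and 5.23 to 11.2 CPM (0.37 ± 0.22, adjusted p 0.470).

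**Figure D5:**
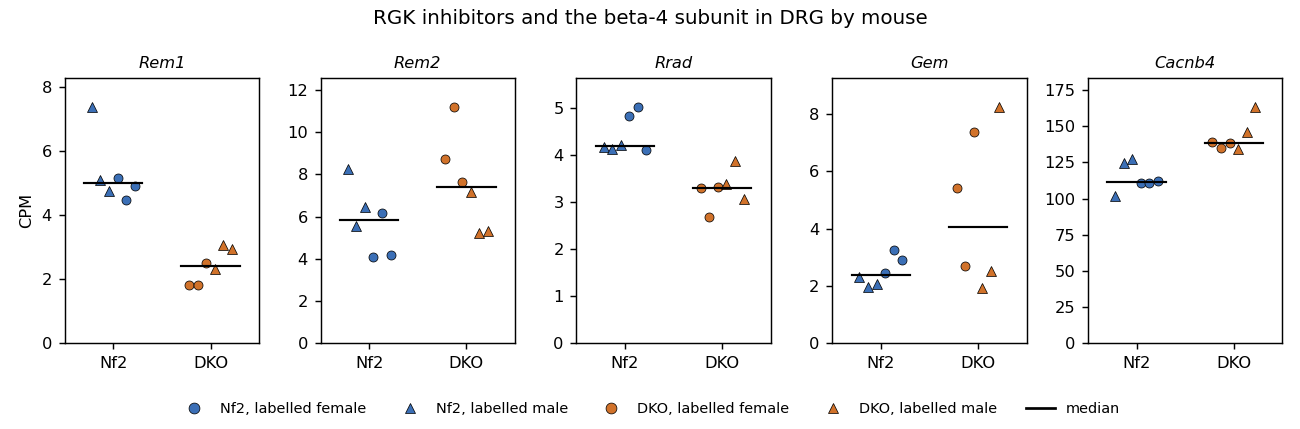
CPM of the RGK genes Rem1, Rem2, Rrad and Gem and of the beta subunit gene Cacnb4 by mouse, in Nf2 (blue) and DKO (orange) DRG, with labelled sex by shape and black lines at the medians of 6 mice. Rem1 separates at 4.47 CPM and above in Nf2 against 3.06 CPM and below in DKO, Rrad and Cacnb4 also separate, and Gem and Rem2 overlap.

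Among the 16 channel inhibitors and adaptors, which include the RGK genes, 8 estimates lay above 0 and the median was -0.001. Among those with most reads were the calmodulin genes Calm3 and Calm2, whose protein gives calcium channels their feedback by calcium, and Dpysl2, which encodes the N-type channel partner CRMP2. Their log2 fold changes were -0.04, 0.02 and -0.25, with edgeR adjusted p of 0.853, 0.940 and 0.778. Of the 6 ligands and binding partners of alpha-2-delta, 0 passed and 2 had an unadjusted edgeR p under 0.05 (33.3%, against 14.9% of all tested genes). Thrombospondin genes Thbs2 and Thbs1, whose proteins bind alpha-2-delta-1, had log2 fold changes of 0.18 and -0.05 (edgeR adjusted p 0.798 and 0.934), and the endocytic receptor gene Lrp1 had 0.03 (0.943).

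The transmitter release site is where N- and P/Q-type channels are anchored. Of its 16 genes, 0 passed the edgeR threshold and 5 had an unadjusted p under 0.05 (31.2%, against 14.9% of all tested genes). The estimate lay above 0 in 15, and the median was 0.16. Among those with most reads were Snap25, Vamp1 and Vamp2, which encode fusion proteins of the SNARE complex. Vamp1 had 401 ± 59.8 and 515 ± 61.0 CPM (SD, n = 6), with a log2 fold change of 0.34 and an adjusted edgeR p of 0.139. Snap25 and Vamp2 had 0.13 and 0.01 (adjusted p 0.437 and 0.971).

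Receptors that inhibit calcium channels through G proteins gave 0 of 7 past the edgeR threshold. An unadjusted p under 0.05 was found for 1 (14.3%, against 14.9% of all tested genes). The estimate lay above 0 in 6, and the median was 0.11. The GABA-B receptor genes Gabbr1 and Gabbr2 had log2 fold changes of 0.06 and 0.11 (adjusted p 0.756 and 0.442), the G protein gene Gnao1 had -0.05 (0.847) and the adenosine A1 receptor gene Adora1 had 0.14 (0.397). The gene with the unadjusted p under 0.05 was the cannabinoid receptor gene Cnr1, named after its values were seen, at 19.6 to 27.7 CPM in Nf2 mice and 29.1 to 36.4 CPM in DKO mice with no overlap (0.30 ± 0.08, edgeR adjusted p 0.109). Calcium clearance and sensing gave 0 of 11 past the threshold and 6 with an unadjusted p under 0.05 (54.5%). The estimate lay above 0 in 10, and the median was 0.20. The plasma membrane calcium pump gene Atp2b1 had 258 ± 7.46 CPM in Nf2 and 289 ± 12.5 CPM in DKO mice (SD, n = 6) with no overlap (0.15, edgeR adjusted p 0.196). Calcium- and calmodulin-dependent kinase genes Camk2g, Camk2d and Camk2a had 0.20, -0.08 and 0.14 (0.312, 0.668 and 0.514). Atp2b4, a further pump gene named after its values were seen, had 0.39 ± 0.09 (adjusted p 0.0554) and passed in 7 of 27 alternative fits.

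Neuronal markers and another channel family were set beside these values. Of 15 pan-neuronal markers, 0 passed the edgeR threshold, 0 had an unadjusted p under 0.05, 6 lay above 0 and the median log2 fold change was -0.01. Neurofilament genes Nefm, Nefl and Nefh had 0.08, 0.03 and 0.08 (edgeR adjusted p 0.714, 0.921 and 0.690). Of 14 voltage-gated sodium channel genes, 0 passed and 2 had an unadjusted p under 0.05 (14.3%, against 14.9% of all tested genes). For 1 of the 14 the genotypes did not overlap in CPM (1.95% of all tested genes). The estimate lay above 0 in 9, and the median was 0.07. Scn7a, Scn10a, Scn9a and Scn11a, those with most reads, had -0.18, 0.002, 0.15 and -0.19 (adjusted p 0.471 to 0.996). Apart from Scn7a, which is not voltage-gated in the usual way, these are typical of nociceptors. Scn8a, the channel of nodes and large fibres, was named after its values were seen and had 161 ± 19.4 and 208 ± 11.4 CPM (SD, n = 6) with no overlap. Its log2 fold change was 0.36, with an adjusted edgeR p of 0.0522. The nearest values were 187.6 CPM in Nf2 mouse 884 and 192.1 CPM in DKO mouse 915. Scaling by the trimmed mean of M values (factors 0.999 and 1.02) reverses their order, so the separation does not hold under it. Scn8a passed in 7 of 27 alternative fits.

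Markers of sensory neuron classes had medians of -0.01 for 5 peptidergic and -0.17 for 7 nonpeptidergic nociceptor genes, -0.001 for 5 tested genes of C low-threshold mechanoreceptors and 0.05 for 6 genes of A-fibre mechanoreceptors and proprioceptors. In these 4 lists 0 genes passed the edgeR threshold and 3 had an unadjusted p under 0.05, as did 14.9% of all tested genes. By list these were 0 of 5 peptidergic, 0 of 7 nonpeptidergic, 1 of 5 C low-threshold mechanoreceptor and 2 of 6 A-fibre genes. The C low-threshold mechanoreceptor gene was lower in DKO and the 2 A-fibre genes were higher. Lists this small cannot be told apart from the share over all genes. Ntrk3, the neurotrophin-3 receptor gene of proprioceptors, had 0.31 with an adjusted edgeR p of 0.0654. Its genotypes did not overlap, which held for 1.95% of all tested genes. Not all A-fibre markers went this way, as 4 of the 6 estimates, Ntrk3 among them, lay above 0 and 2 below, down to -0.29. Among glial and vascular cells, the median was 0.04 over 8 Schwann cell, 0.002 over 3 satellite glia, 0.17 over 5 endothelial and -0.07 over 3 tested adipocyte markers, again with 0 genes past the threshold.

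By labelled sex, 0 of the 10 channel genes passed an adjusted edgeR p of 0.05, where 0.0164% of all tested genes did, and 1 had an unadjusted p under 0.05 (2.91% of all tested genes). This gene was Cacna1e, at 12.2 to 23.6 CPM in the 6 libraries labelled female (median 16.2) and 17.2 to 36.4 CPM in the 6 labelled male (median 24.9). The male values were higher by 0.58 ± 0.13 (SE) on the log2 scale, with an unadjusted edgeR p of 0.000765 and an adjusted p of 1.00. The difference was 0.64 without mouse 702 (edgeR adjusted p 0.502), and DESeq2 gave 0.58 with an adjusted p of 0.0767. Of the 6 libraries labelled male, 4 were among the 5 with most spinal cord neuron markers. For the interaction of genotype and sex, 0 of the 10 genes passed (0.0109% of all tested genes did) and 2 had an unadjusted p under 0.05 (4.78%), namely Cacna1h as above and Cacna1g at 1.97 ± 0.86 (edgeR adjusted p 0.920, or 1.89 and 0.772 without mouse 702).

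Genes with the most similar pattern over the 12 mice were sought among 11960 tested genes with a mean of at least 5 CPM, by the root mean square difference of standardized log2 values (0 for identical patterns). The closest gene to Cacna1b was Brsk2 at 0.241, a neuronal kinase gene, followed by Apc2 (0.418) and Tnpo2 (0.425). Cacna1g lay closest to Adcyap1r1 (0.245), the PACAP receptor gene, and then to Tub (0.320) and Tbc1d31 (0.328). Cacna1a lay closest to Lrrc14 (0.331), Mark2 (0.335) and Adgrl1 (0.336), and Cacna1e to Nova1 (0.361), Hoxb8 (0.366) and Ptprd (0.417).

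Among the other members, Cacna1h lay closest to the RGK gene Rem2 (0.404), followed by Ppp5c (0.450) and Zfp991 (0.515). Cacna1i lay closest to Ccdc85a (0.462), the synaptotagmin gene Syt1 (0.477) and Lypd1 (0.502), and Cacna1c to Snph (0.469), Snupn (0.516) and Socs7 (0.523). The closest to Cacna1d were Tmem67 (0.439), Sec14l2 (0.524) and Serpina3g (0.524), and to Cacna2d1 they were Unc13c (0.451), Nrsn1 (0.479) and Fgfr3 (0.493). Cacna2d2 lay closest to Fahd1 (0.330), Dap3 (0.359) and Cib2 (0.36). No calcium channel gene was among the 3 closest to another.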

How the data were processed

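Libraries were prepared from polyadenylated RNA and sequenced by a commercial provider. The values the authors deposited were raw counts of reads, whole numbers, 1 per gene for each mouse. The submitters' processing notes name Trimmomatic 0.36, STAR 2.5.2b, featureCounts from Subread 1.5.2 and GRCm38. GENCODE M21 supplied positions, lengths and sequences and held 48970 of the 49315 genes (99.3%).

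With R 4.3.3 and edgeR 4.0.16, genes were filtered by filterByExpr, grouped by genotype, and libraries were scaled by the trimmed mean of M values. The main test was the quasi-likelihood F test of genotype over 12 mice, with no covariate. Sex was tested beside genotype, then their interaction. P-values were adjusted over all 18295 tested genes by Benjamini-Hochberg (threshold 0.05). CPM used library totals. Two-sided exact permutation tests ran over 924 splits. Alternatives used limma 3.58.1 and DESeq2 1.42.0. Scripts were tested on simulated data, where the limit on false calls was applied to edgeR and limma voom but not to DESeq2. Replicates were separate mice.

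The members and lists were chosen with earlier results of these data known. Named were the 10 members, genes past the threshold or otherwise the 4 with highest mean CPM per pathway list (up to 3 for a marker list), and the 3 most similar genes per member (standardized log2 CPM, pseudocount 0.5). Some genes that this rule names are not reported here.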

Additional observations from a re-analysis of the deposited data

Results flagged for a closer look

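A mouse far from the other 5 of its genotype was sought in 36 groups of 6 mice, covering the 10 channel genes, the RGK genes, Cacnb4 and the sums of pan-neuronal, spinal cord neuron and skeletal muscle markers. It was found in 1 group, where chance gives 1.8. Mouse 649 (Nf2) had 7.37 CPM of Rem1, against 5.14 CPM in the nearest Nf2 mouse. Without this mouse Rem1 fell by 1.03 on the log2 scale in DKO, with an edgeR adjusted p of 0.0105.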

How the results depend on the processing

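Of 270 refits of the 10 channel genes (27 alternatives each), 266 kept the direction of the genotype difference and 2 passed the threshold. The exceptions in direction were Cacna1g in females (-0.48), Cacna2d2 in females (0.15) and Cacna1h in males (-0.10, or -0.16 without mouse 702). The count past the threshold was 0 of 10 and became 1 under limma voom (Cacna1d) and 1 with the pan-neuronal covariate (Cacna1a). It stayed at 0 for sex and for the interaction under every alternative run. In the 12 fits without 1 mouse it was 0 throughout, as for the other subunits.

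The count of other subunits, 0 in the main test, was 1 with upper-quartile factors, without scaling factors, with at least 1 CPM in 6 mice and under limma voom (Cacnb4 in each), 1 in females (Cacna1s), 2 with the pan-neuronal covariate and 3 under DESeq2. The count of partner genes, 1 in the main test, was 2 with upper-quartile factors, the CPM filter or the muscle covariate, 4 under limma voom, 7 with the pan-neuronal covariate and 12 under DESeq2. Limma voom and the pan-neuronal fit also called more genes in all than the main test. The share of all tested genes called in each of these fits is not given here. These counts are therefore not a result about the other subunits or the partner genes in particular. The partner count was 0 in females, in males, in males without mouse 702 and without the 5 mice with most spinal cord neuron markers, and ranged from 1 to 2 without 1 mouse. It was 2, with Atp2b4 added to Rem1, without mouse 1049. The causes were not tested, beyond fewer mice in the subsets. Leaving out mouse 702 among males, leaving out those 5 mice and the spinal cord covariate were added after the data had been seen. No paired analysis was possible because the mouse numbers are not shared between the genotypes.

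Depth limits the genes with few reads, as few as 8 in 1 mouse for Cacna1s, 20 for Cacna1g and 43 for Rem1.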
